A study of Mus musculus with 4 samples.

Results

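The genes of Akt and mTOR growth signalling were followed in tibialis anterior, the muscle at the front of the shin, in C57BL/6 mice at postnatal day 21. The set held 10 genes, chosen by name out of 32868 gene names: Akt1, Akt2, Mtor, Rptor, Rictor, Rps6kb1, Tsc1, Tsc2, Rheb and Deptor. Each had a single row in each of the 4 library tables, and all 10 passed the filter on low values. The Nf1-KO group (Nf1flox/flox/Myf5+) carried the floxed allele on both copies of Nf1, and the Het group (Nf1flox/+/Myf5+) carried it on 1 copy. Myf5+ stands in crosses of this kind for a Cre driver active in muscle precursors, and both groups carried it, so neither group is wild type, and cells outside the Myf5 lineage would keep Nf1. Each group had 2 libraries of total RNA, and the labels do not say whether they came from separate animals, so p-values measure the spread between these libraries only. The comparison asks how the messenger RNA of young muscle differs when both copies of Nf1, the gene of the Ras inhibitor neurofibromin, are floxed.

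Growth factors and insulin act through PI3-kinase to recruit and activate the kinases Akt1 and Akt2. Akt relieves the brake that the Tsc1 and Tsc2 proteins place on the GTPase Rheb, and active Rheb switches on the kinase mTOR at the lysosome. mTOR works in a pair of complexes, mTORC1 with Raptor (Rptor) and mTORC2 with Rictor. In muscle, mTORC1 raises protein synthesis and fibre size through S6 kinase (Rps6kb1), while Deptor binds and restrains mTOR in both complexes. Much of this control is by phosphorylation and location, which messenger RNA does not report.

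Levels are given as RPKM, reads per kilobase of gene scaled to the reads of the library, so they can be compared between genes. Between libraries, the comparison also depends on the further scaling described below. Nf1 itself, as a check of the labels, held 1.09 and 1.01 RPKM in Het and 0.89 and 0.85 RPKM in Nf1-KO (log2 fold change -0.18, adjusted p 0.041 from limma on scaled log2(RPKM + 1)). That call was lost without scaling (-0.13, adjusted p 0.094) and without any of the 4 libraries, where the adjusted p ran from 0.057 to 0.180; over all alternatives it ran from 0.020 to 0.180. Adding 1 RPKM before the logarithm shrinks the fold change of a gene as low as Nf1, and with 0.1 added instead it was -0.33. The authors' deposited table gave -0.38 for Nf1 (adjusted p 0.0026). The muscle markers were abundant, with 6 myofibre genes summing to 47767 and 47883 RPKM in Het and 37422 and 37030 RPKM in Nf1-KO, where 5 were lower and 1 higher. Markers of other cells were far lower in level and moved as well: the 6 Schwann cell genes were all higher (15.1 and 15.5 against 34.9 and 33.4 RPKM summed), as were all 5 fibroblast genes (86.7 and 84.4 against 128 and 129 RPKM). Of 5 endothelial genes 2 were higher and 1 lower. Of 4 adipocyte genes 2 were tested and 1 was higher (7.6 and 8.67 against 18.7 and 19.2 RPKM summed), and of 4 satellite cell genes 2 were tested and 1 was higher (1.78 and 1.82 against 2.59 and 2.54 RPKM). Of 3 blood genes 1 was tested and not called, with Hbb-b1 listed at 0. In whole muscle, fewer cells of a type and less RNA per cell cannot be told apart, and the part of these cells in the values of the 10 genes was not tested.

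Differences in the 10 genes were small, and how many passed the test depended on scaling between libraries. Rps6kb1, the gene of S6 kinase, fell by 0.30 on the log2 scale in Nf1-KO muscle, and Akt2, the abundant Akt gene of muscle, rose by 0.15. With scaling the other 8 genes did not pass the threshold, a limma adjusted p under 0.05. So 1 member rose and 1 fell, 2 of 10, whereas 50.2% of all 10690 genes tested were called in either direction, 24.9% higher and 25.4% lower. Without scaling 6 of the 10 were called, 5 higher and 1 lower, against 52.8% of all genes. The median absolute log2 fold change was 0.11 over the 10 genes and 0.16 over all genes tested.

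The promoter-side sequences of the 2 called genes are shown because their genes carry the difference. Both are from RefSeq (build GRCm38.p6), 5′ to 3′ on the gene's strand, and end just before the outermost start that RefSeq gives for the gene. For Rps6kb1 the stretch is chr11:86544886-86544990 on the minus strand, where the capitals mark GCATGC, the centre of the site that the factor NRF1 is known to bind. For Akt2 it is chr7:27591302-27591551 on the plus strand, where the capitals mark CCGCCC, the GC box GGGCGG read on the other strand.
Rps6kb1: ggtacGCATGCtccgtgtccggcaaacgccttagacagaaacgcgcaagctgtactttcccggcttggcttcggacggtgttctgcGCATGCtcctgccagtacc
Akt2: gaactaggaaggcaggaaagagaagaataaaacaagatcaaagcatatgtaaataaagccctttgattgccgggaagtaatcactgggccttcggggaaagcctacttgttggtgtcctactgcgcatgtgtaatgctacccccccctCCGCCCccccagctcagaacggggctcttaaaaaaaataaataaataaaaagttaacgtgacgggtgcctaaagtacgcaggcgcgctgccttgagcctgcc
The Rps6kb1 stretch is all that lies between the start of Rps6kb1 and that of its neighbour Tubd1, which is read in the opposite direction, and it holds GCATGC 2 times in 105 bases. RefSeq promoter windows of 300 bases were found for 9 of the 10 genes, 13 windows in all. GCATGC lay in 1 of the 13, that of Rps6kb1, against 7.93% of 32851 mouse windows searched on both strands; it was searched for after this sequence had been seen. GGGCGG lay in 5 of the 13 windows (35.7% of all windows), CCAAT in 3 of the 13 (37.4%), and CACGTG in 1 of the 13, that of Rheb (7.15%). TGACGTCA and TATAAA were found in 0 of the 13. These matches describe the letters only.

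Levels of the 10 genes spanned a wide range. By RPKM the order was Akt2, Rheb, Akt1, Tsc2, Mtor, Tsc1, Rps6kb1, Rptor, Deptor and Rictor, and it was the same in all 4 libraries. No neighbours in that order had overlapping ranges over the libraries. Akt2 in Het stood 84.6-fold above Rictor. Akt2 ranked above 94.6% of the genes tested and Rictor above 8.44%. In the authors' deposited table the mean normalised read count of these genes ran from 574 for Rictor to 10359 for Akt2, for which counting error alone gives a relative SD of 4.18% and 0.983% per library. Differences of a few percent were therefore near the counting error of Rictor and Deptor and above that of Akt2. For Akt2 the Het pair of libraries had a relative SD of 2.15%, above its counting error of 0.983%. The Nf1-KO pair had 0.306%, below it. Each SD rests on 2 libraries, and the part of counting error in the spread was not tested.

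**Figure D1:**
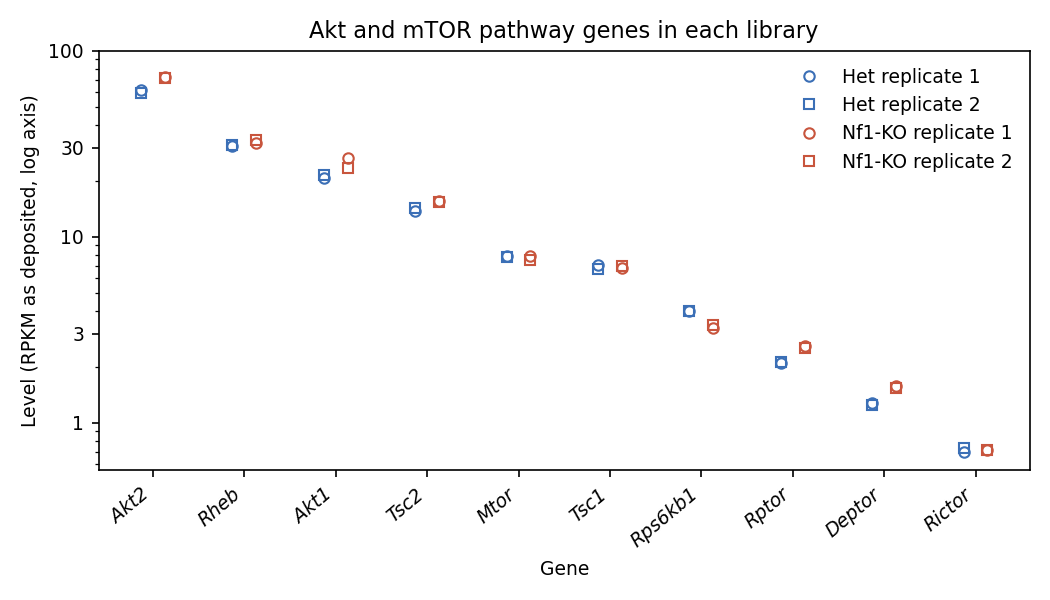
Level of each of the 10 genes (RPKM as deposited, log axis) in each library, Het in blue and Nf1-KO in red, with circles for replicate 1 and squares for replicate 2. The order of the genes is the same in every library. The groups do not overlap in 7 of the 10 genes, Akt2 and Rps6kb1 among them, against 77.3% of all genes tested.

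Akt2 (chromosome 7), which encodes the Akt isoform best known for insulin-stimulated glucose uptake, was the most abundant member. It held 61.4 and 59.6 RPKM in Het and 71.9 and 71.6 RPKM in Nf1-KO. Each Nf1-KO library was above each Het library, with means of 60.5 ± 1.30 RPKM in Het and 71.7 ± 0.219 RPKM in Nf1-KO (SD, n = 2). After scaling between libraries it was 11.1% higher in Nf1-KO, or 0.15 on the log2 scale (standard error 0.024, adjusted p from limma 0.0031). The difference in the authors' deposited table was 0.14 on the log2 scale (adjusted p 7.3e-05). Of the 50-base windows in the longest Akt2 transcript, 16.0% also occur in the pseudogene Akt2-ps, and how such reads were counted is not given in the sources used here.

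Akt1 (chromosome 12), whose product is tied to growth and survival in most tissues, had a fold change of the same size but did not pass the threshold. It held 20.6 and 21.5 RPKM in Het, and 26.5 and 23.5 RPKM in Nf1-KO. The groups did not overlap, but the Nf1-KO libraries lay further apart, with a relative SD of 8.40%, the widest among the 10 genes. The log2 fold change was 0.14 (95% interval 0.0037 to 0.28, adjusted p from limma 0.082). Without Nf1-KO replicate 2 it became 0.24 with an adjusted p of 0.0023, and without Nf1-KO replicate 1 it became 0.069 with an adjusted p of 0.256. Without scaling it was 0.23 (adjusted p 0.016). Over all alternatives the adjusted p from limma ran from 0.0023 to 0.311.

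The core of the kinase complexes is mTOR itself, with Raptor, which brings substrates to mTORC1, and Rictor, which defines mTORC2. Mtor held 7.85 and 7.81 RPKM in Het, inside the span of its 7.89 and 7.54 RPKM in Nf1-KO. After scaling, Mtor was lower in both Nf1-KO libraries, with a log2 fold change of -0.10 (95% interval -0.20 to -0.0043, adjusted p from limma 0.078). The authors' deposited table called Mtor at -0.13 (adjusted p 0.047), and so did limma with the 20 most abundant genes left out, also at -0.13 (adjusted p 0.039). Without scaling Mtor stood at -0.019 (adjusted p from limma 0.712), and without Nf1-KO replicate 2 at -0.064 (adjusted p 0.401). Rptor held 2.10 and 2.11 RPKM in Het and 2.57 and 2.51 RPKM in Nf1-KO. Its groups stood apart, and its log2 fold change was 0.12 (95% interval 0.0005 to 0.25, adjusted p from limma 0.087). Rictor was the lowest member, with 0.70 and 0.73 RPKM in Het and 0.71 RPKM in each Nf1-KO library. Its deposited values overlapped, and its log2 fold change was -0.04 (95% interval -0.18 to 0.091, adjusted p from limma 0.546).

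Deptor (chromosome 15), the inhibitor that binds mTOR in both complexes, held 1.28 and 1.25 RPKM in Het and 1.58 and 1.54 RPKM in Nf1-KO. Both Nf1-KO libraries were above both Het libraries, with a log2 fold change of 0.12 (95% interval -0.0084 to 0.25) that did not pass the threshold (adjusted p from limma 0.106). The authors' deposited table did not call Deptor either (0.20 on the log2 scale, adjusted p 0.217). A pseudocount of 1 shrinks the fold change of a gene at this level, and with a pseudocount of 0.1 it was 0.19.

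The switch above mTORC1 consists of the Tsc1 scaffold, the Tsc2 GTPase-activating protein and their target Rheb. Tsc1 held 7.04 and 6.73 RPKM in Het and 6.83 and 6.93 RPKM in Nf1-KO, with Nf1-KO inside the range of Het. Its log2 fold change after scaling was -0.08 (95% interval -0.18 to 0.018). Tsc2 held 13.8 and 14.2 RPKM in Het and 15.5 and 15.4 RPKM in Nf1-KO. Its groups stood apart, but after scaling its log2 fold change was 0.05 (95% interval -0.035 to 0.13). It was 0.017 without Het replicate 1, and 0.13 and called without scaling (adjusted p from limma 0.016). Of the exon bases of Tsc2, 7.20% overlap Pkd1 on the other strand. Rheb held 30.8 and 31.2 RPKM in Het and 31.96 and 32.95 RPKM in Nf1-KO. The deposited values of Rheb were higher in Nf1-KO and the scaled values overlapped, with a log2 fold change of -0.03 (95% interval -0.097 to 0.040) that turned to 0.06 without scaling. The adjusted p from limma was 0.144 for Tsc1, 0.298 for Tsc2 and 0.436 for Rheb. With scaling and on the log2(RPKM + 1) scale, all 3 unadjusted intervals leave out a change of 0.2 in either direction. This was not checked for the other fits.

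Rps6kb1 (chromosome 11) encodes the S6 kinase that mTORC1 phosphorylates to drive ribosomal protein S6 phosphorylation and translation. It held 3.97 and 4.01 RPKM in Het and 3.22 and 3.34 RPKM in Nf1-KO. Every Nf1-KO value lay below every Het value, both as deposited and after scaling, and the means were 3.99 ± 0.028 RPKM in Het and 3.28 ± 0.085 RPKM in Nf1-KO (SD, n = 2). After scaling the mean RPKM of Rps6kb1 was 23.0% lower in Nf1-KO. On the log2(RPKM + 1) scale the difference was -0.30 (standard error 0.047, adjusted p from limma 0.0028). A pseudocount of 1 shrinks the fold change at this level, and with a pseudocount of 0.1 it was -0.37. In the authors' deposited table Rps6kb1 stood at -0.39 on the log2 scale (adjusted p 3.6e-07). Its absolute fold change exceeded that of 75.0% of the genes tested. The genes on either side were looked up after these values were seen. Rnft1, which overlaps 1.79% of the Rps6kb1 exon bases on the other strand at the far end, fell from 5.80 and 6.21 RPKM to 3.56 and 3.77 RPKM, a log2 fold change of -0.66 (adjusted p from limma 1.4e-04). Tubd1, which shares the start-side stretch printed above, held 2.73 and 2.61 against 2.63 and 2.54 RPKM and did not pass the threshold (log2 fold change -0.10, adjusted p from limma 0.149).

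Among 4821 other genes of at least 5 RPKM, those whose scaled values lay nearest to the Rps6kb1 pattern over the 4 libraries were Tnk2, Itfg1 and Lmtk2. Their distances were 0.0063, 0.013 and 0.014 log2 units, and their log2 fold changes were -0.30, -0.28 and -0.29. Likeness over 4 libraries in 2 groups rests mainly on the size of the group difference.

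**Figure D2:**
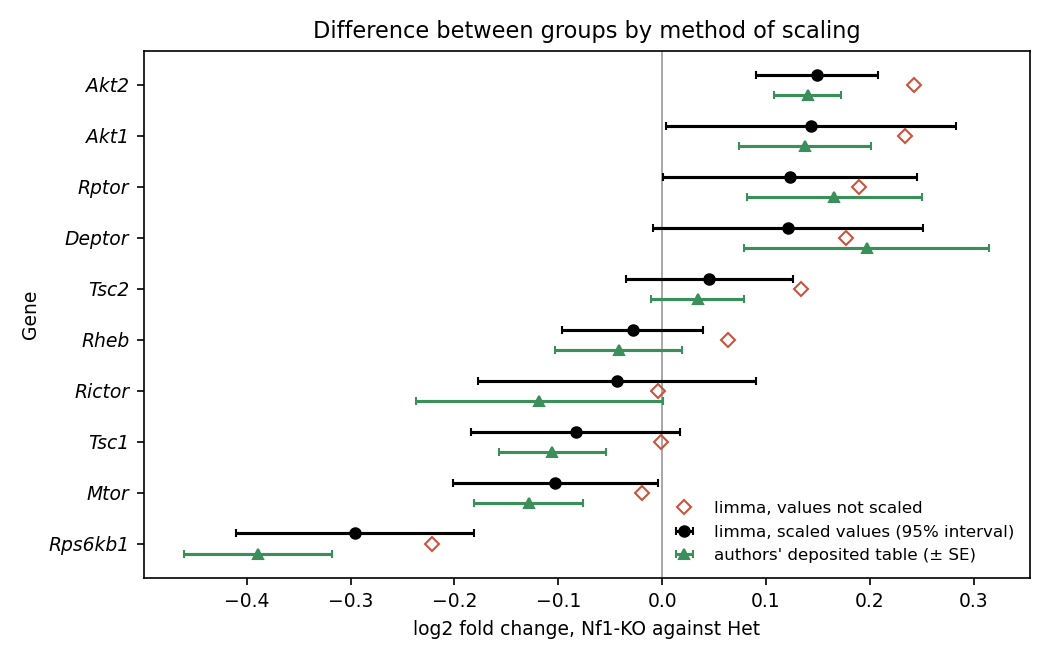
Log2 fold change of Nf1-KO against Het for each gene: black circles are limma on scaled values with 95% intervals, red diamonds limma on values not scaled, and green triangles the authors' deposited table with standard errors. Rps6kb1 lies below 0 and Akt2 above 0 in all 3, while Rheb changes side without scaling.

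Scaling bore on how many of these small values passed the threshold, and it turned the direction of Rheb. The scaling factors put the Nf1-KO libraries 0.094 log2 units above the Het libraries, a shift of the same order as most differences here, and without scaling the median of all genes tested was 0.07. After scaling the groups did not overlap in 9 of the 10 genes, 5 higher and 4 lower, against 76.3% of all genes tested. By the deposited values this held for 7 genes, 6 higher and 1 lower, against 77.3% of all genes. Without scaling limma called 6 of the 10, Akt1, Akt2, Rptor, Tsc2 and Deptor higher and Rps6kb1 lower, against 52.8% of all genes. It called 4 of the 10 without a variance trend (49.4% of all genes) and 3 of the 10 with the 20 most abundant genes left out (50.8%). The authors' deposited table called 3 of the 10 (Rps6kb1, Akt2 and Mtor), against 31.6% of its 13985 genes. Akt2 and Rps6kb1 were called in the same direction under each of the 14 alternatives run.

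Ratios of members within a library do not depend on scaling, and 6 were compared. With 2 libraries against 2, the exact permutation test (two-sided) cannot go below 0.333, so these are given as values. The ratio of Rictor to Rptor, a measure of the balance between messages for the mTORC2 and mTORC1 subunits, was 0.333 and 0.346 in Het and 0.276 and 0.283 in Nf1-KO. That is a difference of -0.28 on the log2 scale with no overlap. Deptor to Mtor was 0.163 and 0.160 in Het and 0.200 and 0.204 in Nf1-KO, 1.25-fold higher, which was the widest separation of the 6. Rps6kb1 to Mtor was 0.506 and 0.513 in Het and 0.408 and 0.443 in Nf1-KO. By contrast Akt2 to Akt1 was 2.98 and 2.77 in Het, between the 2.71 and 3.04 of the Nf1-KO libraries. Tsc1 to Tsc2 was lower by 0.14 and Rheb to Mtor higher by 0.087 on the log2 scale, each without overlap. How often other gene pairs show no overlap was not computed. Of single genes tested, 77.3% showed none by the deposited values. The exact permutation p was 0.333 for 5 ratios and 1.00 for Akt2 to Akt1, and after Benjamini-Hochberg adjustment over the 6 ratios 0.400 and 1.00.

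**Figure D3:**
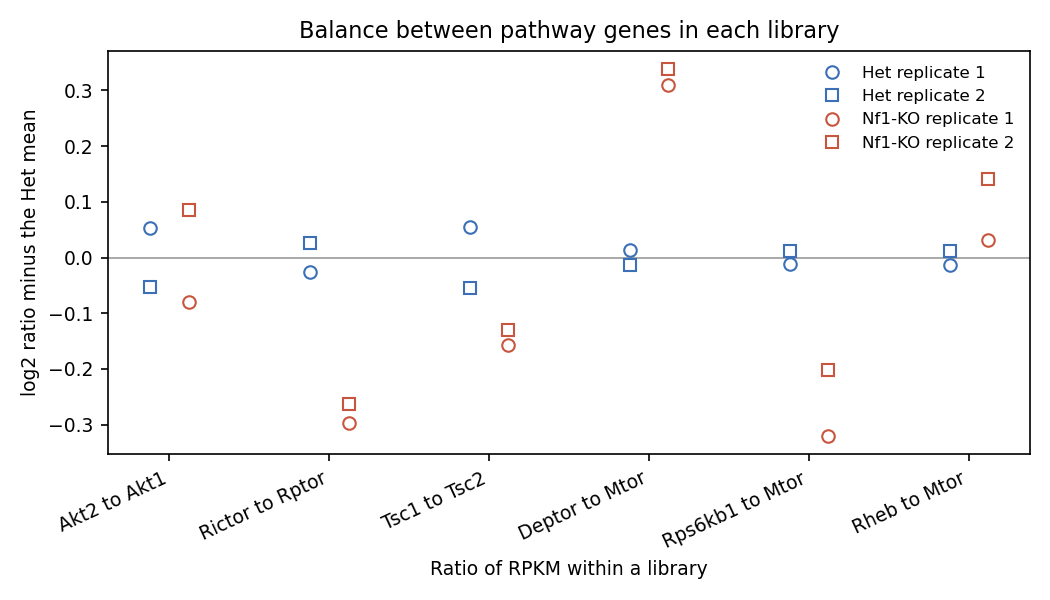
Log2 ratio of 2 genes' RPKM within each library, set to the Het mean of that ratio, with Het in blue, Nf1-KO in red, circles for replicate 1 and squares for replicate 2. Deptor to Mtor lies higher and Rictor to Rptor and Rps6kb1 to Mtor lower in both Nf1-KO libraries, while Akt2 to Akt1 overlaps.

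The rest of the pathway was read through 5 lists of 86 genes, of which 81 could be tested and 40 (49.4%) were called, 20 higher and 20 lower, against 50.2% of all genes. Without scaling the split was 30 higher and 10 lower, against 3760 higher and 1883 lower of all 10690 genes tested. The 5 left untested by the filter were Prr5l, Tti2, Rragc, Nprl3 and Eif4ebp3, of which Tti2 and Rragc were listed at 0 in all libraries. The named genes of each list are the 3 called higher and the 3 called lower with the largest change.

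Of 8 partners of mTOR in its complexes, 6 were tested and 1 was called, with a median log2 fold change of -0.07. Akt1s1, which encodes the mTORC1 inhibitor PRAS40, fell by 0.14 on the log2 scale, from 44.1 and 41.5 RPKM in Het to 41.5 and 41.1 RPKM in Nf1-KO (adjusted p from limma 0.014); without scaling it was not called (-0.05).

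The insulin receptor substrates, PI3-kinase subunits and the kinases and phosphatases around Akt were called in 10 of 18 genes, 4 higher and 6 lower, with a median of -0.07. Without scaling that balance turned to 7 higher and 4 lower, and the counts over all genes moved the same way. Pik3r1, the main regulatory subunit of PI3-kinase, rose from 3.01 and 3.06 RPKM to 6.03 and 6.10 RPKM, a log2 fold change of 0.73. Grb10, an adaptor that dampens insulin receptor signalling, rose by 0.67, and Irs2, an insulin receptor substrate, rose by 0.40. Irs1, the other main substrate, fell from 8.50 and 8.19 RPKM to 5.17 and 5.04 RPKM, a log2 fold change of -0.70; 30.9% of its exon bases overlap Gm9747 on the other strand. Pik3cd, the PI3-kinase catalytic subunit typical of leukocytes, fell from 2.85 and 2.69 RPKM to 1.27 and 1.31 RPKM, a log2 fold change of -0.78. The largest limma adjusted p among these 5 genes was 0.0012, for Irs2. Immune markers moved the other way: 3 of 7 could be tested, all 3 were higher, and the summed RPKM of the 7 was 9 and 9.2 in Het and 28.4 and 28.3 in Nf1-KO, with Adgre1 listed at 0 in all libraries. Their part in these results was not tested.

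Inputs to the TSC complex and Rheb were called in 6 of 9 genes, 4 higher and 2 lower (4 and 1 without scaling), with a median of 0.14. Ddit4 (REDD1), a stress-induced inhibitor of mTORC1 that acts through the TSC complex, rose from 21.8 and 20.4 RPKM to 41.5 and 43.6 RPKM, a log2 fold change of 0.89 (adjusted p from limma 1.4e-05). Its relative Ddit4l (REDD2), abundant in muscle, fell from 90.9 and 87.3 RPKM to 74.0 and 72.5 RPKM, a log2 fold change of -0.37. Sesn1 and Sesn3 encode sestrins, stress proteins that restrain mTORC1. Sesn1 rose by 0.75, from 5.27 and 5.10 RPKM to 10.01 and 10 RPKM, and Sesn3 rose by 0.23 with an adjusted p from limma of 0.047. Tbc1d7, the third subunit of the TSC complex, fell by 0.28 (0.027). The call on Tbc1d7 was lost without scaling, with no filter and without Het replicate 1, and that on Sesn3 without each of 3 libraries (both Het replicates and Nf1-KO replicate 1, where it stood at 0.14). Sesn3 also lost it with the 20 most abundant genes left out, with no filter and with no variance trend.

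The amino acid sensing arm brings mTORC1 to the lysosome through the Rag GTPases. Of 28 genes 26 were tested, and 3 were higher and 6 lower (34.6% called), with a median of -0.03. Without scaling the balance turned here too, to 6 higher and 2 lower, with a median of 0.053. Fnip1, a partner of folliculin, rose by 0.57, from 8.51 and 9.37 RPKM to 14.5 and 14.8 RPKM (adjusted p from limma 2.1e-04), and Flcn, folliculin itself, rose by 0.15. Rraga rose by 0.11 while Rragd, another Rag GTPase, fell by 0.45, from 30.8 and 31.6 RPKM to 24.3 and 24.0 RPKM. Wdr59 and Sec13, subunits of GATOR2, which activates mTORC1, fell by 0.46 and 0.17. Sec13 was not called without scaling (-0.07), and Flcn and Rraga each lost the call without Het replicate 1, without Het replicate 2 or without Nf1-KO replicate 2. Rraga also lost it with the 20 most abundant genes left out, with no filter and with no variance trend.

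Targets of Akt and the mTOR complexes were called in 14 of 22 genes, 9 higher and 5 lower (13 and 3 without scaling), with a median of 0.04. Tbc1d4 (AS160), the Akt substrate that holds back glucose transporter traffic, rose from 3.40 and 3.45 RPKM to 19.6 and 19.7 RPKM, a log2 fold change of 2.14 (adjusted p from limma 4.5e-07). Foxo1 and Foxo3, transcription factors that Akt keeps out of the nucleus, rose by 0.59 and 0.49; 7.78% of the Foxo1 exon bases overlap Gm20402 on the other strand. Larp1, which represses translation of messages with a terminal oligopyrimidine tract, fell from 29.2 and 29.6 RPKM to 21.2 and 21.0 RPKM, a log2 fold change of -0.55. Eif4ebp2, a repressor of cap-dependent translation, fell by 0.41, and Gsk3b, a kinase that Akt inhibits, fell by 0.24. The related gene Eif4ebp1, which the naming rule leaves out, went the other way. It rose by 0.46, from 29.2 and 27.0 RPKM in Het to 41.4 and 42.1 RPKM in Nf1-KO (adjusted p from limma 1.9e-04). The second S6 kinase gene, Rps6kb2, outside that naming rule, held a mean of 10.2 RPKM in Het and 10.5 RPKM in Nf1-KO and was not called (log2 fold change -0.05, adjusted p from limma 0.293).

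**Figure D4:**
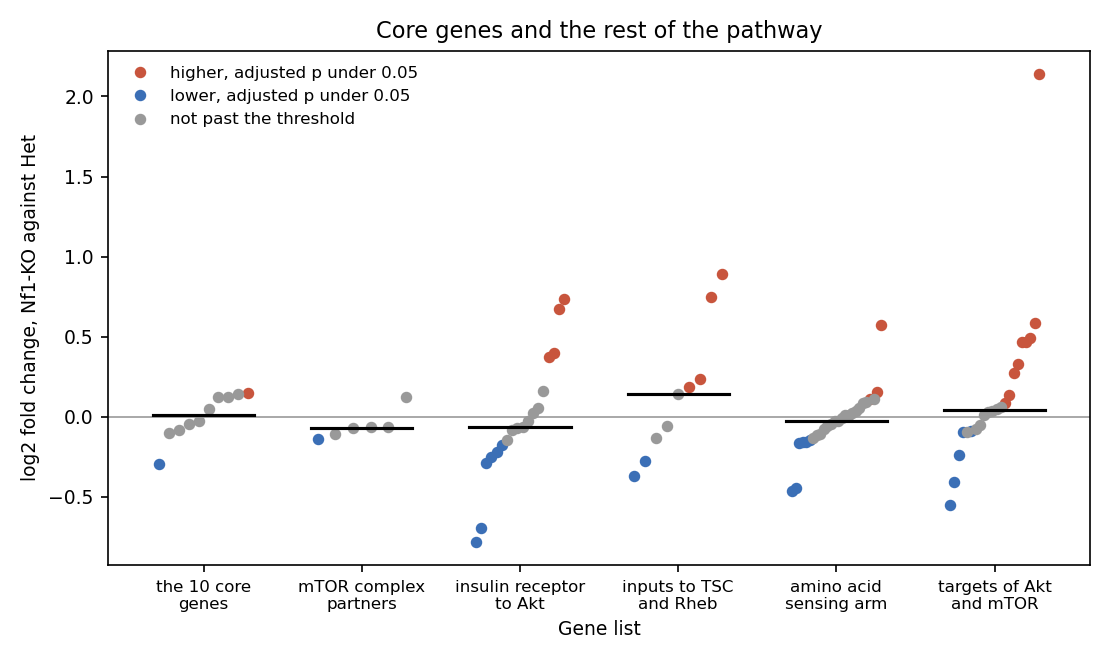
Log2 fold change of Nf1-KO against Het for each tested gene (points) of the 10 core genes and the 5 pathway lists, red for higher and blue for lower at a limma adjusted p under 0.05, grey otherwise, with the median as a line. All 6 medians lie between -0.07 and 0.14, and the highest point is Tbc1d4 at 2.14.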

How the data were processed

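Per the submitters' processing notes, reads were aligned with STAR 2.4.2a to mouse build mm9 and compared with DESeq2. The counter, annotation and strand setting are not given in the sources used here. The authors deposited, per library, a gene name and a number whose unit no header states. It was read as RPKM: the values summed to 532315 to 547144 per library, and over 4555 genes of at least 5 RPKM the deposited mean count divided by RPKM rose with transcript length with a log-log slope of 0.95. The authors' deposited comparison table holds, per the file headers, a mean signal of normalised counts, log2 fold changes, a test score, p-values and adjusted p-values.

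Of 34682 rows, 33 named by a number were dropped, and the highest of several copies was kept. Genes that reached 0.5 RPKM in 2 or more libraries were scaled by a trimmed mean of log ratios (30% and 5% trimmed; factors 0.969, 0.967, 1.03 and 1.03) and tested on log2(RPKM + 1) with limma 3.58.1 in R 4.3.3, with a variance trend and no covariate, after a check on simulated data. Fold changes on this scale understate those of low genes. P-values are two-sided and Benjamini-Hochberg adjusted over all 10690 genes. Intervals are limma's 95% intervals, unadjusted. Exon overlap and shared windows used GENCODE M21 (GRCm38), not the authors' build. The members and lists were chosen with earlier results of these data known, and the genes named from each pathway list are the 3 called higher and the 3 called lower with the largest change, of which 1 is not reported here. Castor1 and Castor2 were matched by their older symbols. Libraries of the same replicate number did not deviate together over the genes (correlation of deviations -0.018). With 2 libraries per group this is a single value, and it cannot show whether the number marks a shared animal or day.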

Additional observations from a re-analysis of the deposited data

How the results depend on the processing

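Of 616 values under 14 alternatives, 571 stayed on the same side of 0 and of the threshold, or stayed within 1.5 times for counts. The count of members called moved from 2 to 6 without scaling and to 4 without a variance trend (Rptor and Deptor added). The lower pathway genes went from 20 to 10 without scaling and to 13 with no filter. For these the cause was not tested. Of all genes, 5371 were called, 2658 higher and 2713 lower, against 3760 and 1883 without scaling. When each library was left out, 4235 to 4471 genes, 2 to 3 members and 31 to 33 pathway genes were called. Rheb turned from -0.03 to 0.063 without scaling and to 0.00057 without Nf1-KO replicate 1 (-0.045 to 0.00057 with a library left out). The difference in the Akt2 to Akt1 log2 ratio, 0.0020, turned to -0.051 without Het replicate 2 and -0.081 without Nf1-KO replicate 2 (-0.081 to 0.085 with a library left out). Mtor passed the threshold only with the 20 most abundant genes left out (-0.13, adjusted p 0.039; 0.039 to 0.712 over its alternatives), and Akt1 also with the filter of 1 RPKM in every library (0.15, adjusted p 0.048). With the replicate number as a block, 2 members, 36 pathway genes and 5236 genes were called; Nf1 lost its call (-0.18, adjusted p 0.056). The labels do not say that the number marks a shared animal or day. Of the 10 genes, the computed counting error was largest for Rictor (4.18%) and Deptor (4.15%), and its part in their results was not tested.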
